A study of Mus musculus with 13 samples.

Results

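The 10 genes described here encode the receptors of the CD28 family and the co-inhibitory receptors that T cells use beside the antigen receptor: *Cd28*, *Ctla4*, *Icos*, *Pdcd1*, *Btla*, *Tigit*, *Cd96*, *Cd226*, *Lag3* and *Havcr2*. They were chosen by symbol, with earlier results of these data known. All 10 were found among the 24417 named genes of both count tables. Their mRNA was measured by bulk RNA-seq in 13 libraries of doubly sorted CD4 T cells of C57BL/6 mice, in 5 groups and 2 separate experiments. The *Foxp3*LSL allele carries a *loxP*-flanked Thy1.1-STOP cassette ahead of a GFP reporter. Cells that switch on the locus make Thy1.1 and no Foxp3 protein until a Cre recombinase removes the cassette, and cells in that state are the Treg “wannabes”. The male experiment had 3 groups, all given 4-hydroxytamoxifen (4-OHT) once on postnatal day 14 and analyzed on day 21. Its rescued Treg cells came from *Foxp3*LSL/y *Cd4*creERT2 males, in which 4-OHT activates the recombinase (n = 3). Its control Treg cells came from healthy *Foxp3*DTR-GFP/y *Cd4*creERT2 males, which carry another *Foxp3* allele (n = 3). Its “wannabes” came from *Foxp3*LSL/y *Cd4*wt males, which lack the recombinase and stay diseased (n = 2). In the female experiment, resting “wannabes” came from *Foxp3*LSL/WT *Cd4*wt mice, which keep wild-type Treg cells (n = 3). Activated “wannabes” came from *Foxp3*LSL/DTR *Cd4*wt mice, whose Treg cells are ablated by diphtheria toxin (n = 2). All female mice received the toxin 7, 5, 3 and 1 days before analysis at 9 to 11 weeks of age. *Cd4*creERT2 acts in all cells that express *Cd4*, and the female mice are mosaics because *Foxp3* is X-linked. Cells came from spleen and lymph nodes, and per the study's methods the sort kept TCRβ+ CD4+ cells and removed CD8+ and NK1.1+ ones.

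CD28 delivers the costimulatory signal that, together with the antigen receptor, activates a naive T cell, and CTLA-4 binds the same ligands, CD80 and CD86, with higher affinity. Treg cells hold CTLA-4 constitutively and use it to strip these ligands from antigen-presenting cells. TIGIT, CD96 and CD226 form a second such set around the ligand CD155, with CD226 activating and TIGIT inhibitory. PD-1, BTLA, LAG-3 and TIM-3 are inhibitory receptors that come up on activated or chronically stimulated T cells.

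Several of these genes are neighbours in the genome (GENCODE M21, GRCm38). *Cd28* (chr1:60716800-60773359, + strand), *Ctla4* (chr1:60887000-60915832, + strand) and *Icos* (chr1:60977927-61000320, + strand) follow each other with gaps of 113640 and 62094 bases and with 0 protein-coding genes between them. *Pdcd1* (chr1:94038305-94052553, - strand) is on the same chromosome, 33037984 bases further on. *Tigit* (chr16:43648867-43664146, - strand), *Btla* (chr16:45224315-45257670, + strand) and *Cd96* (chr16:46035657-46120251, - strand) share chromosome 16. *Lag3* (chr6:124904361-124911705, - strand) lies 16139 bases from *Cd4*, counted between the nearest bounds of both genes, and *Havcr2* lies at chr11:46454935-46481255 (+ strand). No exon of the 10 genes overlaps an exon of another annotated gene.

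Promoter sequences were available in RefSeq (GRCm38.p6) for 6 of the 10 genes. The 3 sequences shown belong to mRNAs with different patterns in the male groups. From control to rescued Treg cells *Tigit* rose and *Cd96*, on the same chromosome, fell. *Ctla4* was highest in rescued Treg cells, but its difference from control Treg cells was not called at an adjusted p under 0.05. Each sequence is the 250 bases before the start annotated in RefSeq, 5′ to 3′ on the strand of the gene. This start differs from the GENCODE bound given above, and the *Ctla4* window lies inside the GENCODE bounds of the gene. Capitals mark the letters GGAAA, the core that NFAT factors bind, on either strand.
Tigit, chr16:43664185-43664434, - strand: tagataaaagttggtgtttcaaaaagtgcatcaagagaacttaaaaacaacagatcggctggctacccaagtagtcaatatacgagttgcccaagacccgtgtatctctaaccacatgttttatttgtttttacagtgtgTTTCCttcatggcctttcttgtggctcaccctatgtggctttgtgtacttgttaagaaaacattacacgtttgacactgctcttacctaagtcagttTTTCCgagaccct
Cd96, chr16:46120249-46120498, - strand: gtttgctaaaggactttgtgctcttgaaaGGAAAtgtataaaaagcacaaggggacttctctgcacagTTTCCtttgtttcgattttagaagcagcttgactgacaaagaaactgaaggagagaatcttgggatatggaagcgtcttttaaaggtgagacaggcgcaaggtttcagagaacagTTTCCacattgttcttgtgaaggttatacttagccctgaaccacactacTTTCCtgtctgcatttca
Ctla4, chr1:60908775-60909024, + strand: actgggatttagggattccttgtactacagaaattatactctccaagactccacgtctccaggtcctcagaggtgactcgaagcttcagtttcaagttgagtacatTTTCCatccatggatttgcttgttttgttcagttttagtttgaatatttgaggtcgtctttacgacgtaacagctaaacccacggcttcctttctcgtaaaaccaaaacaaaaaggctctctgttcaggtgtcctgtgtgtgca
The *Tigit* window holds 2 matches to GGAAA, the *Cd96* window 4 and the *Ctla4* window 1, and 55.6% of 32851 promoter windows of this length hold at least 1. The letters CANNTG, the E-box, occur once in the *Tigit* and once in the *Ctla4* window and in 66.2% of all windows, and the *Cd96* window holds the STAT-like letters TTCNNNGAA, which 7.02% of windows hold. Neither the forkhead letters TGTTTAC nor the AP-1 letters TGANTCA, each searched on both strands, occur in these 3 windows, and 3.17% and 6.75% of all windows hold them. A match of letters does not show that a factor binds.

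Total counts ran from 25556783 to 36659638 per library, and the counts of single receptor genes from 106 to 44124. *Foxp3* was highest in rescued Treg cells, with 865, 909 and 1109.7 counts per 1000000 (CPM, scaled by TMM within each experiment). It stood at 167, 215 and 252 CPM in control Treg cells, 84.2 and 99.8 CPM in male, 69.8, 67.3 and 75.1 CPM in resting and 52.8 and 58.2 CPM in activated “wannabes”. *Thy1*, to which the sorting marker belongs, ran from 36.4 to 46.7 CPM in the 6 Treg libraries and from 175.7 to 327 CPM in the 7 “wannabe” libraries. Summed CD4 T cell markers (*Cd3e*, *Cd3g*, *Cd4*, *Cd5* and *Lat*) ran from 2723 to 4626 CPM. *Cd4* itself was lower in control (log2 fold change -1.51, SE 0.16, adjusted p = 0.000456 by edgeR) and rescued Treg cells (-1.27, SE 0.16, adjusted p = 0.000589) than in male “wannabes”. *Cd8a* and *Cd8b1* summed to 9.72 to 27.8 CPM, and other markers to at most 44.1 CPM for 6 B cell, 7.64 CPM for 7 myeloid, 8.89 CPM for 5 NK cell and 17.3 CPM for 4 erythroid markers. Fewer cells that express a gene and less of its RNA per cell cannot be told apart in such bulk samples.

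Changes were tested gene by gene with edgeR's quasi-likelihood test and called at a Benjamini-Hochberg adjusted p under 0.05 over all genes tested. The 10 genes were chosen with earlier results of these data known. Their shares beside those of all genes are therefore no test of the set. Between rescued and control Treg cells, 3 of the 10 receptor genes were called, against 2.3% of the 14925 genes tested. *Icos* and *Tigit* rose (1.43% of all genes did) and *Cd96* fell (0.864%). The libraries of these groups did not overlap for 9 of the 10 (24.2% of all genes), with 4 higher (12.6%) and 5 lower (11.6%) in rescued Treg cells. Between control Treg cells and male “wannabes”, 5 were called against 16.2% of all genes. *Ctla4*, *Cd28* and *Btla* were higher in control Treg cells (9.92% of all genes) and *Havcr2* and *Tigit* lower (6.27%). For all 10 the libraries were apart here (46.1% of all genes), 5 higher (25.4%) and 5 lower (20.7%).

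Between rescued Treg cells and male “wannabes”, 3 receptor genes were called against 14.1% of all genes. *Ctla4* and *Icos* were higher in rescued Treg cells (10% of all genes) and *Pdcd1* lower (4.06%). Of the 10, 6 did not overlap (42.7% of all genes), 3 higher (22%) and 3 lower (20.7%). Between activated and resting “wannabes”, 5 were called against 22.5% of 13166 genes. *Havcr2* and *Btla* rose (11.3% of all genes) and *Lag3*, *Cd28* and *Cd226* fell (11.2%). Here 8 did not overlap (56.5% of all genes), 4 higher (27.9%) and 4 lower (28.6%). In each comparison receptors moved in both directions. The median log2 fold change of the 10 was 0.10, 0.16, 0.10 and 0.00 in this order, against -0.03, 0.09, 0.00 and -0.01 over all genes tested. The first 3 comparisons share libraries in pairs and are not independent of each other.

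**Figure D1:**
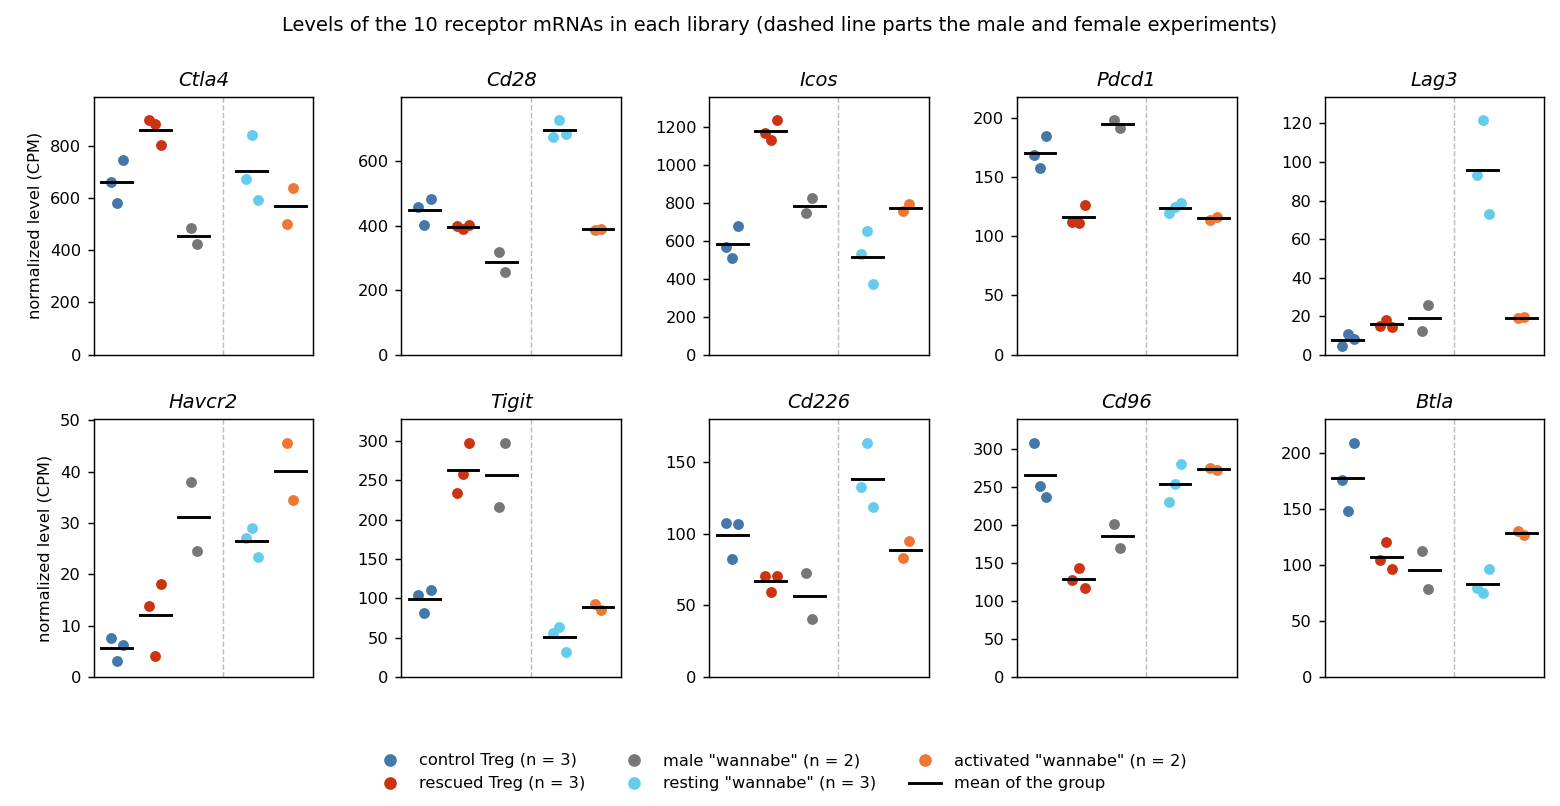
Each point is the TMM-normalized level (CPM, linear axis from 0) of 1 of the 10 receptor mRNAs in 1 library, each bar is the mean of a group, and a dashed line parts the male groups (left) from the female groups (right), which were scaled separately. *Icos* is highest in the 3 rescued Treg libraries, at 1132 CPM or more, *Tigit* is lowest in the control Treg libraries among the male groups, and *Lag3* is highest in the 3 resting “wannabe” libraries.

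**Figure D2:**
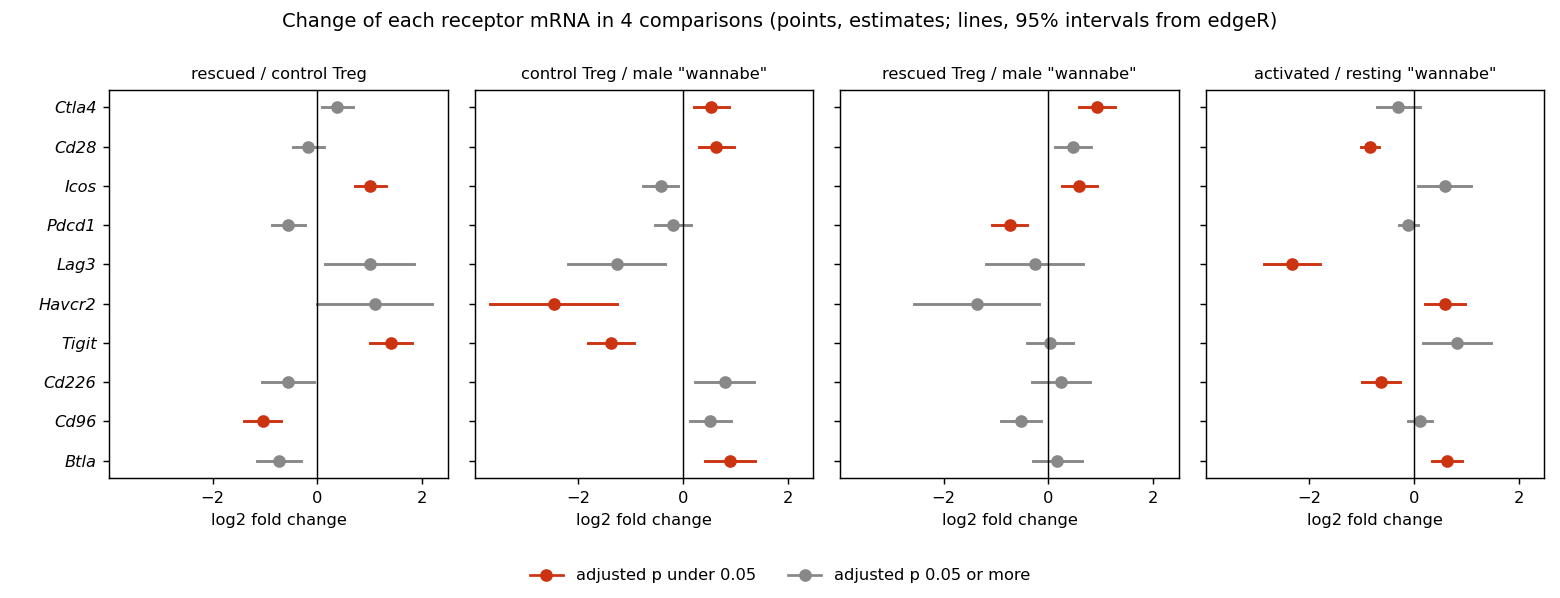
Log2 fold changes of the 10 receptor mRNAs (x axis) with their 95% intervals in 4 comparisons, red where the adjusted p was under 0.05 and grey where it was not. *Icos* (1.01), *Tigit* (1.41) and *Cd96* (-1.04) pass in the comparison of rescued with control Treg cells, and *Lag3* (-2.32) has the most negative estimate between activated and resting “wannabes”.

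*Cd28*, the costimulatory receptor itself, differed little between the Treg populations. It stood at 457, 403 and 481 CPM in control Treg cells, 399, 389 and 401 CPM in rescued Treg cells and 318 and 255 CPM in male “wannabes”. The lowest control library was just above the highest rescued one, and both “wannabe” libraries were below all Treg libraries. The difference between rescued and control Treg cells was within the error (log2 fold change -0.17, SE 0.14, 95% interval -0.47 to 0.13, edgeR adjusted p = 0.617). Control Treg cells held 1.56-fold the “wannabe” level (log2 fold change 0.64, SE 0.16, edgeR adjusted p = 0.0178). This call was lost without control replicate 1 (adjusted p = 0.0531), control replicate 3 (0.0659) or “wannabe” replicate 2 (0.109), and in a fit of only these 2 groups (0.0514). The rescued Treg cells' difference from “wannabes” did not pass (log2 fold change 0.47, SE 0.15, edgeR adjusted p = 0.0692), although it did without “wannabe” replicate 1 (0.0339). In every fit that leaves a group with 1 library, here and for the genes that follow, that library is assumed to vary like those of the other groups. In the female experiment *Cd28* stood at 674, 727 and 685 CPM in resting and 388 and 389 CPM in activated “wannabes”, with a gap between the groups that was far wider than the spread within either. It fell to 0.558 times the resting level (log2 fold change -0.84, SE 0.07, edgeR adjusted p = 0.000871) and stayed called without any 1 of the 5 libraries.

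*Ctla4*, whose product competes with CD28 for CD80 and CD86, was highest in rescued Treg cells among the male groups. Its level was 897, 883 and 800.1 CPM in rescued Treg cells, 659, 580.1 and 745 CPM in control Treg cells and 483 and 423 CPM in male “wannabes”. These 3 ranges did not overlap, so the order of the groups held in every library. Rescued Treg cells held 1.90-fold the “wannabe” level (log2 fold change 0.92, SE 0.15, edgeR adjusted p = 0.00253), a call kept in all 8 fits that left out a male library. Control Treg cells also exceeded “wannabes” (log2 fold change 0.55, SE 0.15, edgeR adjusted p = 0.0326). That call was lost without control replicate 1 (adjusted p = 0.0767), control replicate 3 (0.117) or “wannabe” replicate 2 (0.164), and in a fit of these 2 groups alone (0.0772). The step from control to rescued Treg cells did not pass over all genes (log2 fold change 0.38, SE 0.13, interval 0.08 to 0.67, edgeR adjusted p = 0.187). Resting “wannabes” held 672, 842 and 591 CPM and activated ones 499 and 639 CPM. These ranges overlapped, and the change between them was not resolved (log2 fold change -0.30, SE 0.17, interval -0.71 to 0.11, edgeR adjusted p = 0.247).

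Since CTLA-4 and CD28 share ligands, their counts were also set against each other within each library, a ratio that does not depend on library scaling. Counts are not divided by gene length here, so the ratio is compared between groups and does not give relative levels of the mRNAs. The *Ctla4* to *Cd28* ratio of counts was 1.44, 1.44 and 1.55 in control Treg cells, 2.25, 2.27 and 1.99 in rescued Treg cells and 1.52 and 1.66 in male “wannabes”. For female mice it was 0.997, 1.16 and 0.864 in resting and 1.29 and 1.65 in activated “wannabes”. All rescued libraries lay above all other male libraries, while control Treg cells and male “wannabes” overlapped. Both activated libraries lay above the resting ones. On the log2 scale the difference was 0.55 between rescued and control Treg cells (exact permutation test, two-sided p = 0.1) and 0.45 between rescued Treg cells and male “wannabes” (p = 0.2). It was -0.10 between control Treg cells and male “wannabes” (exact permutation p = 0.4) and 0.54 between activated and resting “wannabes” (p = 0.2). The smallest p this exact test can give is 0.1 for 3 libraries against 3 and 0.2 for 3 against 2, so no ratio here could pass 0.05. Over the 12 ratio comparisons made, the lowest Benjamini-Hochberg adjusted p was 0.267 (exact permutation test).

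*Icos*, the inducible costimulator that supports effector and tissue Treg cells, had the largest rise in rescued over control Treg cells among the CD28 family members measured here. Its level was 1167, 1132 and 1235 CPM there, 744 and 826 CPM in male “wannabes” and 567, 508 and 679 CPM in control Treg cells. The 3 groups did not overlap, and the control Treg cells, from healthy mice, were lowest. *Icos* rose 2.01-fold from control to rescued Treg cells (log2 fold change 1.01, SE 0.14, edgeR adjusted p = 0.00498), in all 8 fits without 1 library. Rescued Treg cells also exceeded “wannabes” (log2 fold change 0.59, SE 0.15, edgeR adjusted p = 0.0263). Of those 8 fits, 4 lost this call: without rescued replicate 1 (adjusted p = 0.0633), rescued replicate 3 (0.0661), “wannabe” replicate 1 (0.0922) or “wannabe” replicate 2 (0.0517). A fit of only these 2 groups lost it as well (0.0616). Control Treg cells stood below “wannabes” without passing (log2 fold change -0.42, SE 0.15, edgeR adjusted p = 0.0768). In the female experiment *Icos* ran at 529, 649 and 371 CPM in resting and 758 and 791 CPM in activated “wannabes”. Activated libraries were higher without overlap, yet the difference missed the threshold (log2 fold change 0.59, SE 0.21, interval 0.08 to 1.09, edgeR adjusted p = 0.0922). Among the fits that left out a library, it passed only without resting replicate 2 (adjusted p = 0.0295).

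*Pdcd1*, which encodes the inhibitory receptor PD-1, was highest in male “wannabes” and lowest in rescued Treg cells among the male groups. It stood at 198 and 191 CPM in male “wannabes”, 169, 158 and 184 CPM in control Treg cells and 112, 111 and 126 CPM in rescued Treg cells, with no overlap between neighbouring groups. Rescued Treg cells held 0.597 times the “wannabe” level (log2 fold change -0.74, SE 0.16, edgeR adjusted p = 0.00847), a call lost only without rescued replicate 2 (adjusted p = 0.0531) among 8 such fits. Against control Treg cells the difference did not pass (log2 fold change -0.55, SE 0.14, interval -0.86 to -0.24, edgeR adjusted p = 0.0731). It did without “wannabe” replicate 1 (adjusted p = 0.0467) or 2 (0.0474), libraries of a group outside this comparison that shares its fit, in DESeq2 (0.00549) and with library size alone (0.0451). Control Treg cells and “wannabes” were not resolved (log2 fold change -0.19, SE 0.16, interval -0.54 to 0.15, edgeR adjusted p = 0.434). Resting and activated “wannabes” were close, at 120.1, 124 and 128 CPM and 114 and 116 CPM (log2 fold change -0.11, SE 0.07, interval -0.28 to 0.07, edgeR adjusted p = 0.332).

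*Btla*, an inhibitory receptor for the TNF receptor family member HVEM, was highest in control Treg cells. Its level was 176, 148 and 209 CPM in control Treg cells, 104, 121 and 96.2 CPM in rescued Treg cells and 112 and 78.2 CPM in male “wannabes”. The control libraries lay above all others, and rescued Treg cells overlapped with “wannabes”. Control Treg cells held 1.87-fold the “wannabe” level (log2 fold change 0.90, SE 0.22, edgeR adjusted p = 0.0177), except without control replicate 3 (adjusted p = 0.0658) or “wannabe” replicate 2 (0.116). The lower level in rescued than in control Treg cells did not pass (log2 fold change -0.73, SE 0.19, interval -1.15 to -0.32, edgeR adjusted p = 0.0781), but did without “wannabe” replicate 1 (0.0324) or 2 (0.032). DESeq2 (0.015), edgeR with no filter (0.0351) and a fit of only these 2 groups (0.0389) called it too. Rescued Treg cells and “wannabes” were not resolved (log2 fold change 0.17, SE 0.21, interval -0.30 to 0.64, edgeR adjusted p = 0.656). Among the female groups *Btla* rose from 79.2, 74.9 and 96.1 CPM in resting to 131 and 127 CPM in activated “wannabes” (log2 fold change 0.63, SE 0.12, edgeR adjusted p = 0.014), with no overlap. It was not called without activated replicate 1 (adjusted p = 0.11) or 2 (0.0992), or in a fit of all 13 libraries (0.0704). B cells also express *Btla*, and the summed B cell markers were 9.84 to 12.4 CPM in resting and 22.6 to 24.9 CPM in activated “wannabes”. Of the 6 markers 2 could be tested. *Cd79b*, which made up most of the sum in both groups, rose (1.34, SE 0.15, adjusted p = 0.00193 by edgeR), *Cd79a* had a log2 fold change of -0.01 (adjusted p = 0.986), and no marker was at 0 in every library of either group. The part of B cells in the *Btla* change was not tested.

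Among the receptors around CD155, *Tigit* and *Cd96* moved in opposite directions between the Treg populations. *Tigit*, the inhibitory member of the set that marks activated Treg cells, stood at 104, 81.8 and 111 CPM in control Treg cells, 234, 258 and 298 CPM in rescued Treg cells and 216 and 298 CPM in male “wannabes”. Control Treg cells were far below both other groups, which overlapped. *Tigit* rose 2.66-fold from control to rescued Treg cells (log2 fold change 1.41, SE 0.18, edgeR adjusted p = 0.00397). It was lower in control Treg cells than in “wannabes” (log2 fold change -1.38, SE 0.20, edgeR adjusted p = 0.00153). Both calls held in all 8 fits without 1 library. Rescued Treg cells and “wannabes” were not distinguished (log2 fold change 0.04, SE 0.20, interval -0.40 to 0.48, edgeR adjusted p = 0.936). Resting “wannabes” held 56.4, 63.5 and 31.4 CPM and activated ones 93.2 and 85.4 CPM, higher without overlap. The difference missed the threshold (log2 fold change 0.82, SE 0.27, interval 0.17 to 1.47, edgeR adjusted p = 0.0733) but passed without resting replicate 2 (0.0484) or 3 (0.0212). NK cells express *Tigit*, *Cd96* and *Cd226* too, and the sort gated out cells with NK1.1 on their surface. The summed levels of 5 NK cell markers were 0.612 to 1.38 CPM in control Treg cells, 4.25 to 8.89 CPM in rescued Treg cells and 4.87 to 8.77 CPM in male “wannabes”. This sum was lowest in control Treg cells, as *Tigit* was, while *Cd96* and *Cd226* were highest in them among the male groups. *Klrb1c*, which encodes NK1.1, had the highest mean of the 5 in each male group, at 0.787, 3.07 and 5.72 CPM in the same order. It was called lower in control Treg cells than in “wannabes” (log2 fold change -2.85, SE 0.76, adjusted p = 0.0263 by edgeR). *Ncr1*, *Klra8* and *Klre1* were at 0 in every control Treg and male “wannabe” library, and *Klra8* in every rescued one. Between rescued and control Treg cells edgeR called 0 of the 4 NK cell markers tested, all 4 were higher at an unadjusted p under 0.05, and DESeq2 called 3. The part of NK cells in the *Tigit* level was not tested.

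*Cd96*, a receptor for the same ligand with both inhibitory and costimulatory roles described, followed the reverse order. It stood at 309, 252 and 238 CPM in control Treg cells, 201 and 170.4 CPM in male “wannabes” and 128, 143 and 117 CPM in rescued Treg cells. No 2 male groups overlapped, with the “wannabes” in between. *Cd96* fell to 0.486 times the control level in rescued Treg cells (log2 fold change -1.04, SE 0.16, edgeR adjusted p = 0.00954), again in all 8 fits without 1 library. The other differences among the male groups did not pass. Control Treg cells against “wannabes” gave a log2 fold change of 0.52 (SE 0.18) with an edgeR adjusted p of 0.0718. Rescued Treg cells against “wannabes” gave a log2 fold change of -0.52 (SE 0.17) with an edgeR adjusted p of 0.073. Female “wannabes” differed little, with 231, 254 and 280.1 CPM in resting and 276 and 273 CPM in activated libraries, which overlapped (log2 fold change 0.11, SE 0.10, interval -0.12 to 0.34, edgeR adjusted p = 0.458).

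*Cd226*, the activating receptor of the set, was highest in control Treg cells among the male groups and in resting “wannabes” among the female ones. It stood at 108, 82.4 and 107 CPM in control Treg cells, 70.6, 59.3 and 70.6 CPM in rescued Treg cells and 72.9 and 40.7 CPM in male “wannabes”. The control libraries were above the rest, and the rescued libraries lay within the range of the “wannabes”, whose libraries differed most from each other. No male comparison passed in edgeR. Rescued against control Treg cells gave a log2 fold change of -0.57 (SE 0.23), with an interval of -1.06 to -0.07 and an edgeR adjusted p of 0.244. Control Treg cells against “wannabes” gave a log2 fold change of 0.80 (SE 0.26) with an edgeR adjusted p of 0.0562, and the result varied with the “wannabe” library left out. The estimate was 1.28 without “wannabe” replicate 1 (adjusted p = 0.00983) and 0.39 without replicate 2 (0.336). DESeq2 (0.027) and edgeR with no filter (0.0348) called this difference. Rescued Treg cells against “wannabes” gave a log2 fold change of 0.23 (SE 0.25) with an edgeR adjusted p of 0.59. Among the female groups *Cd226* fell from 133, 164 and 119 CPM in resting to 82.9 and 95.2 CPM in activated “wannabes” (log2 fold change -0.64, SE 0.15, edgeR adjusted p = 0.0281), without overlap. The call was lost without activated replicate 1 (adjusted p = 0.18) or 2 (0.105) and in a fit of all 13 libraries (0.144).

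The receptors around CD155 were also set against each other within each library. Counts of *Tigit* and *Cd226* were close to equal in control Treg cells, with ratios of 0.967, 0.993 and 1.04. Counts also depend on length, 919 exon bases for *Tigit* and 4891 for *Cd226*. Per kilobase of exon, control Treg cells held 108 CPM of *Tigit* and 20.2 CPM of *Cd226*. The ratios are therefore read between groups and not as relative levels of the 2 mRNAs. In rescued Treg cells the ratio was 3.32, 4.36 and 4.22, and in male “wannabes” 2.96 and 7.31. Among females it was 0.425, 0.387 and 0.265 in resting and 1.12 and 0.897 in activated “wannabes”. Control Treg and resting “wannabe” libraries, from the healthy mice of each experiment, had the lower ratios without overlap. The log2 differences were 1.98 between rescued and control Treg cells (exact permutation p = 0.1) and -2.22 between control Treg cells and male “wannabes” (p = 0.2). Between activated and resting “wannabes” the difference was 1.51 (exact permutation p = 0.2). Each of these p-values is the smallest its design allows. The difference between control Treg cells and male “wannabes” was -2.87 without “wannabe” replicate 1 and -1.57 without “wannabe” replicate 2. Rescued Treg cells and male “wannabes” overlapped (-0.24, exact permutation p = 0.8). This difference ran from -0.89 without “wannabe” replicate 1 to 0.41 without “wannabe” replicate 2. The *Cd96* to *Cd226* ratio of counts ran from 1.66 to 4.18 over the male and from 1.55 to 3.33 over the female libraries. In it rescued Treg cells overlapped with control Treg cells (log2 difference -0.48, exact permutation p = 0.2), and control Treg cells with male “wannabes” (-0.34, p = 0.6). Rescued Treg cells lay below male “wannabes” (-0.81, exact permutation p = 0.2) and activated above resting “wannabes” (0.74, p = 0.2).

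**Figure D3:**
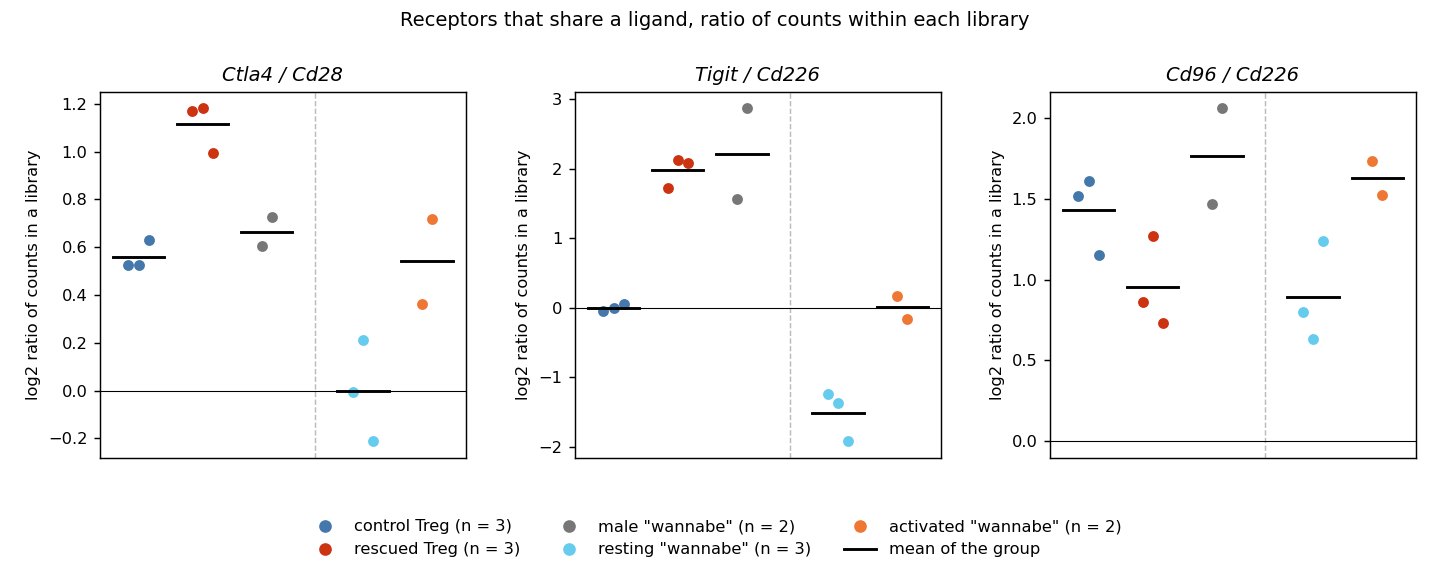
Log2 ratio of the counts of 2 receptors that share a ligand in each library (points) with the mean of each group (bars), for *Ctla4* to *Cd28*, *Tigit* to *Cd226* and *Cd96* to *Cd226*; a dashed line parts the male from the female groups. The *Tigit* to *Cd226* ratio is near 0 on this scale in control Treg cells and near 2 in rescued Treg cells, and it is lowest in resting “wannabes”. Counts are not divided by gene length, so a value of 0 does not mean equal levels of the 2 mRNAs.

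*Lag3*, the MHC class II-binding inhibitory receptor encoded beside *Cd4*, was low in all male groups and high in resting “wannabes”. The male libraries held 4.51, 10.8 and 8.17 CPM in control Treg cells, 15.1, 17.9 and 14.2 CPM in rescued Treg cells and 12.2 and 25.6 CPM in “wannabes”. Control libraries were lowest without overlap, and the “wannabe” pair spanned all rescued libraries. None of the male comparisons passed in edgeR. For rescued against control Treg cells the log2 fold change of 1.00 (SE 0.39) had an interval of 0.15 to 1.85 and an edgeR adjusted p of 0.227. For control Treg cells against “wannabes” the log2 fold change of -1.27 (SE 0.42) had an edgeR adjusted p of 0.0635, and the result depended on the “wannabe” pair. Without “wannabe” replicate 1 the estimate was -1.71 (adjusted p = 0.0262) and without replicate 2 it was -0.68 (0.406). DESeq2 called it (0.0173), as did edgeR with no filter on low counts (0.0485). For rescued Treg cells against “wannabes” the log2 fold change of -0.27 (SE 0.42) had an interval of -1.20 to 0.66 and an edgeR adjusted p of 0.732. In the female experiment resting “wannabes” held 93.1, 122 and 73.2 CPM and activated ones 18.8 and 19.6 CPM. Every resting library was far above both activated libraries. *Lag3* fell to 0.20 times the resting level (log2 fold change -2.32, SE 0.22, edgeR adjusted p = 0.00126), a call kept in all 5 fits without 1 library. The resting mice are the healthy ones, and *Lag3* was higher here in “wannabes” of healthy than of sick mice.

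*Havcr2*, which encodes TIM-3, was last of the 10 by mean level per length in control Treg cells, where its libraries overlapped those of *Lag3*. In CPM it stood at 7.62, 3.14 and 6.24 CPM in control Treg cells, 13.8, 4.19 and 18.2 CPM in rescued Treg cells and 38.0 and 24.6 CPM in male “wannabes”. Both “wannabe” libraries were above all Treg libraries, and the rescued libraries ranged from within the control range to well above it. Control Treg cells held 0.181 times the “wannabe” level (log2 fold change -2.46, SE 0.55, edgeR adjusted p = 0.0124), which was not called without “wannabe” replicate 1 (adjusted p = 0.0522). Rescued against control Treg cells did not pass (log2 fold change 1.09, SE 0.50, interval -0.01 to 2.19, edgeR adjusted p = 0.315). Neither did rescued Treg cells against “wannabes” (log2 fold change -1.37, SE 0.54, edgeR adjusted p = 0.122). In female mice it stood at 27.2, 29.1 and 23.3 CPM in resting and 45.7 and 34.5 CPM in activated “wannabes” and rose by this test (log2 fold change 0.59, SE 0.16, edgeR adjusted p = 0.0423). This call was lost without resting replicate 1 (adjusted p = 0.0664), resting replicate 3 (0.0891), activated replicate 1 (0.28) or activated replicate 2 (0.0729). It was also lost with no filter on low counts (0.0557) and in a fit of all 13 libraries (0.615). Myeloid cells express *Havcr2* as well. The sum of 7 myeloid markers was 0.360 to 1.42 CPM in control and 4.90 to 7.64 CPM in rescued Treg cells, and 2.49 to 5.78 CPM in male, 1.42 to 3.71 CPM in resting and 4.18 to 7.07 CPM in activated “wannabes”. In female mice the sum was higher in activated “wannabes”, as *Havcr2* was. Of the 7 markers 4 could be tested there, 3 with positive estimates, and edgeR and DESeq2 called 0 of them. In male mice the sum was lowest in control Treg cells and overlapped between rescued Treg cells and “wannabes”, which were apart in *Havcr2*. *Cd68* had the highest mean of the 7 in each male group, at 0.538 CPM in control Treg cells, 4.38 CPM in rescued Treg cells and 3.30 CPM in “wannabes”. *Csf1r*, *Cd14* and *Itgax* were at 0 in both male “wannabe” libraries. The part of myeloid cells in the *Havcr2* level was not tested.

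To compare the receptors with each other, levels were divided by the length of their merged exons in GENCODE M21, in CPM per kilobase. *Ctla4* had the highest level per length in control Treg cells (284 ± 35.4, SD, n = 3) and rescued Treg cells (369 ± 22.5, SD, n = 3). It also led in resting “wannabes” (301 ± 54.9, SD, n = 3) and activated “wannabes” (244 ± 42.5, SD, n = 2). In male “wannabes” *Tigit* had the highest level (279 ± 63.3, SD, n = 2). *Icos* was second in all 5 groups. Its libraries overlapped those of the leading receptor in rescued Treg cells and in male and activated “wannabes”, so that the order of the first 2 was not fixed there. In rescued Treg cells *Ctla4*, *Icos* (343 ± 15.3) and *Tigit* (287 ± 35.0) made up 80.5% of the summed level per length of the 10 receptors. In control Treg cells, where *Cd96* was the third, the leading 3 made up 62.4%. *Tigit* alone went from 11.7% of the sum in control to 23.1% in rescued Treg cells. *Lag3* and *Havcr2* took the last 2 ranks in every group except resting “wannabes”, in which *Lag3* was seventh at 45.5 ± 11.6 CPM per kilobase and *Btla* ninth. Dividing by the longest transcript instead changed the rank of 2 receptors in control Treg cells and of 3 in resting “wannabes”, where *Cd28* moved to second. The annotated *Tigit* transcript has 919 bases, the fewest of the set, and its level per length depends on that annotation.

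**Figure D4:**
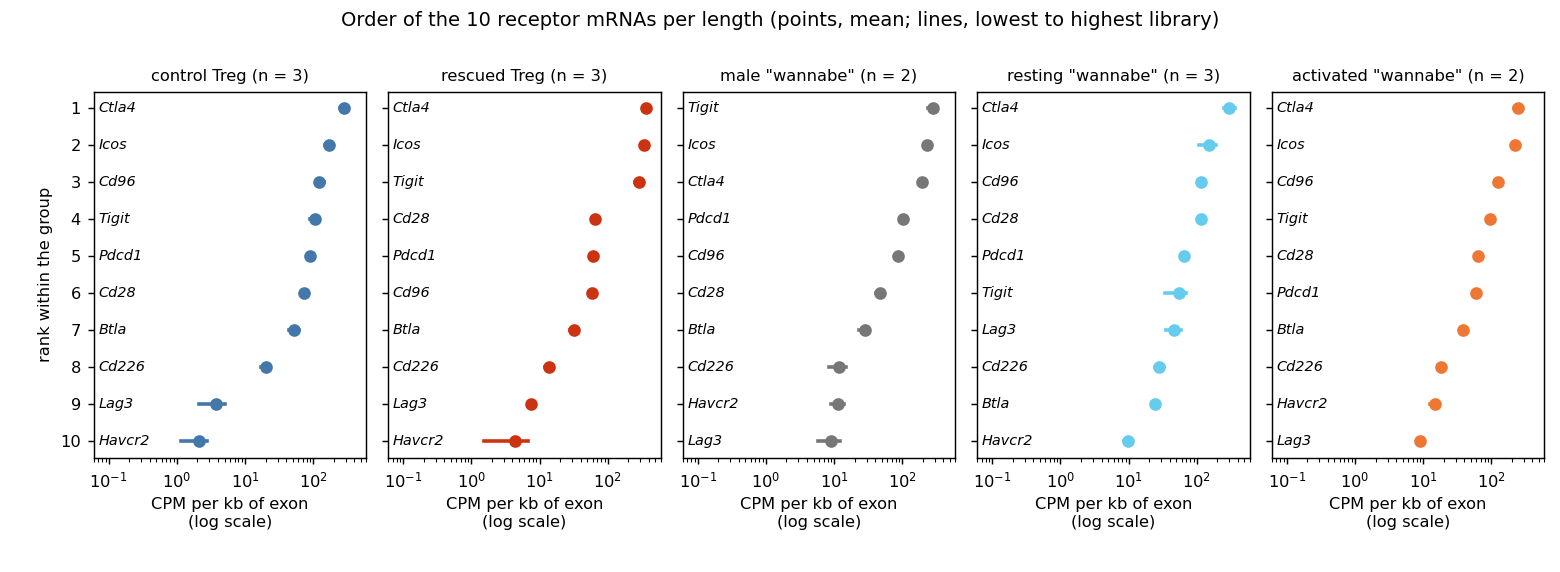
Mean level of each receptor mRNA per kilobase of exon (points, CPM per kilobase, log axis) with the range from the lowest to the highest library (lines), ranked from highest to lowest within each group. *Ctla4* leads in 4 groups and *Tigit* in male “wannabes”, and *Lag3* is last or next to last except in resting “wannabes”.

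To ask whether a receptor changed alike in both experiments, the difference between rescued and control Treg cells was set against that between activated and resting “wannabes” in 1 model over all 13 libraries. The difference between the changes was called for 3 of the 10 receptors, where 1.53% of 15201 genes were called: it was positive for *Lag3* (0.803% of all genes) and negative for *Cd96* and *Btla* (0.73%). For *Lag3* the estimate was 3.33 (SE 0.50, edgeR adjusted p = 0.00628). Its levels were higher in rescued than in control Treg cells, a change that did not pass on its own (1.00, edgeR adjusted p = 0.227). They were lower in activated than in resting “wannabes” (-2.32, edgeR adjusted p = 0.00126). *Btla* had the reverse pattern (difference -1.35, SE 0.25, edgeR adjusted p = 0.0163). Its levels were lower in rescued than in control Treg cells, which did not pass on its own either (-0.73, edgeR adjusted p = 0.0781). They were higher in activated than in resting “wannabes” (0.63, edgeR adjusted p = 0.014). *Cd96* fell in rescued Treg cells and differed little between the female groups (difference -1.13, SE 0.20, edgeR adjusted p = 0.013). *Icos* and *Tigit* had positive estimates in both experiments and *Cd226* negative ones, and their differences did not pass. The difference was 0.44 for *Icos* (interval -0.12 to 1.00, edgeR adjusted p = 0.51), 0.60 for *Tigit* (interval -0.14 to 1.35, edgeR adjusted p = 0.492) and 0.08 for *Cd226* (interval -0.57 to 0.74, edgeR adjusted p = 0.962). For *Ctla4* it was 0.69 (interval 0.21 to 1.17, edgeR adjusted p = 0.162), for *Pdcd1* -0.43 (interval -0.79 to -0.07, edgeR adjusted p = 0.253) and for *Havcr2* 0.52 (interval -0.88 to 1.92, edgeR adjusted p = 0.826). *Cd28* came near the threshold (difference 0.68, edgeR adjusted p = 0.0577) and passed it without male “wannabe” replicate 1 (adjusted p = 0.0172) or 2 (0.0172), in DESeq2 (0.00441) and among genes with a mean normalized count over 100 (0.0459). With activated replicate 1 or 2 left out, none of the 10 was called by edgeR. The adjusted p for *Lag3* was then 0.054 and 0.0525, for *Cd96* 0.0842 and 0.0816, and for *Btla* 0.0999 and 0.097. *Btla* was also lost without control replicate 3 (0.054), resting replicate 1 (0.0504) or resting replicate 2 (0.0533). Sex, age, treatment and cell population all differ between the experiments and cannot be told apart in this contrast.

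**Figure D5:**
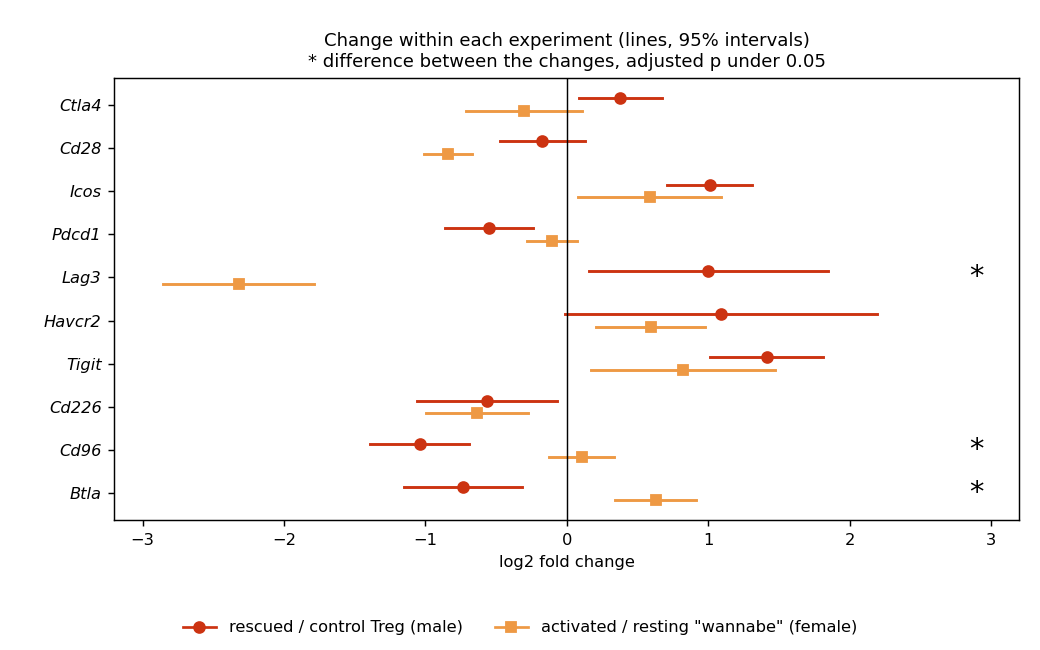
Log2 fold change (x axis) of each receptor mRNA from control to rescued Treg cells in male mice (circles) and from resting to activated “wannabes” in female mice (squares), with 95% intervals from separate fits; an asterisk marks an adjusted p under 0.05 for the difference between them. *Lag3* and *Btla* lie on opposite sides of 0 in the 2 experiments, and the *Cd96* interval lies below 0 in the male experiment and spans 0 in the female one.

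The genes around the receptors were counted in lists of their ligands, other receptors of related function, signaling molecules, CTLA-4 trafficking proteins and transcriptional regulators. The lists were chosen with earlier results of these data known, so their shares do not test them. The share of all genes at an unadjusted p under 0.05 was not counted. DESeq2 called 1195 of 14709 genes between rescued and control Treg cells and 3767 of 14333 between control Treg cells and “wannabes”. Between rescued Treg cells and “wannabes” it called 3335 of 13958. Of 12 ligand genes tested in the male libraries, *Cd86*, a ligand shared by CD28 and CTLA-4, was lower in rescued than in control Treg cells (log2 fold change -1.58, SE 0.26, adjusted p = 0.0118 by edgeR). It was higher in control Treg cells than in “wannabes” (1.73, SE 0.31, adjusted p = 0.00396). EdgeR called no other ligand in either comparison, against 2.3% and 16.2% of all genes. At an unadjusted p under 0.05 there were 6 and 3 ligands, and DESeq2 called 3 in each. Between rescued Treg cells and “wannabes” edgeR called 0 of the 12, where 14.1% of all genes were called, with 2 at an unadjusted p under 0.05 and 1 called by DESeq2. Between activated and resting “wannabes” 3 of 10 ligands rose and none fell, where 11.3% of all genes rose and 11.2% fell. *Icosl*, the ICOS ligand gene, rose 13.8-fold (3.78, SE 0.19, adjusted p = 0.000273). The PD-1 ligand genes *Pdcd1lg2* (1.43, SE 0.23, adjusted p = 0.00751) and *Cd274* (0.57, SE 0.10, adjusted p = 0.0101) rose as well. Antigen-presenting cells express these ligands, and the summed B cell and myeloid markers given for *Btla* and *Havcr2* were also higher in the activated libraries. Of the markers tested, edgeR called 1 of 2 for B cells and 0 of 4 for myeloid cells. The part of antigen-presenting cells in these changes was not tested. The list's median log2 fold change was -0.45 against -0.03 over all genes tested in rescued against control Treg cells and 0.05 against -0.01 over all genes tested in activated against resting “wannabes”. The change of *Icosl* differed between the experiments (difference -3.86, SE 0.42, adjusted p = 0.000962), as did that of *Cd86* (-1.51, SE 0.32, adjusted p = 0.035).

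Other inhibitory and costimulatory receptors formed a further list. Between activated and resting “wannabes” 5 of 11 rose and 1 fell by edgeR, where 22.5% of all genes were called. Among those that rose were *Cd160*, another receptor for the BTLA ligand HVEM (1.14, SE 0.32, adjusted p = 0.0457), *Lair1*, an inhibitory collagen receptor (1.14, SE 0.30, adjusted p = 0.0409), and *Cd200r1*, an inhibitory receptor for CD200 (0.89, SE 0.12, adjusted p = 0.00472). Of 12 tested in the male libraries edgeR called 0 in each of the 3 comparisons, where it called 2.3%, 16.2% and 14.1% of all genes. At an unadjusted p under 0.05 there were 2 for rescued against control Treg cells, 1 for control Treg cells against “wannabes” and 4 for rescued Treg cells against “wannabes”, and DESeq2 called 0, 1 and 2 of them. The difference between the experiments was called for *Cd160* alone (-1.89, SE 0.43, adjusted p = 0.0457).

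Signaling and trafficking genes were counted in the same way. Of 18 signaling genes 2 were higher and 1 lower in control Treg cells than in “wannabes”, a share near the 16.2% of all genes called. In rescued Treg cells 5 were higher and 2 lower than in “wannabes”, where 14.1% of all genes were called. *Prkcq*, the protein kinase C isoform recruited by CD28, was higher in both (1.07, SE 0.16, adjusted p = 0.00195 and 1.34, SE 0.16, adjusted p = 0.000484), 2 comparisons that share the “wannabe” libraries. *Fyn*, a Src family kinase (1.22, SE 0.30, adjusted p = 0.0189), and the adaptor gene *Grb2* (1.01, SE 0.29, adjusted p = 0.0435) were higher in rescued Treg cells, and *Bag6*, which encodes a partner of the TIM-3 tail, was lower in control Treg cells than in “wannabes” (-0.86, SE 0.23, adjusted p = 0.0289). Between rescued and control Treg cells edgeR called 0 of the 18, with 5 at an unadjusted p under 0.05 and 0 called by DESeq2. In activated “wannabes” 1 signaling gene rose and 3 fell, a share near the 22.5% of all genes called. Those that fell included the CD28 adaptor gene *Grap2* (-0.68, SE 0.07, adjusted p = 0.00178) and the phosphoinositide 3-kinase subunit gene *Pik3r1* (-0.65, SE 0.14, adjusted p = 0.0195). Of 9 genes for the transport of CTLA-4, 5 were called between control Treg cells and “wannabes” and 3 between rescued Treg cells and “wannabes”, against 16.2% and 14.1% of all genes. *Rab11a*, which encodes a recycling GTPase, was higher in control (1.34, SE 0.21, adjusted p = 0.00209) and in rescued Treg cells (1.5, SE 0.21, adjusted p = 0.000871) than in “wannabes”. *Ap2m1*, a subunit of the clathrin adaptor that internalizes CTLA-4, was lower in both (-0.66, SE 0.14, adjusted p = 0.0108 and -0.50, SE 0.14, adjusted p = 0.0386). In activated against resting “wannabes” 1 of the 9 rose and 1 fell, near the share of all genes, and *Rab11a* was the one that fell (-0.33, SE 0.08, adjusted p = 0.0324). Of these 9, edgeR called 0 between rescued and control Treg cells, with 2 at an unadjusted p under 0.05 and 0 called by DESeq2.

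Of 13 regulators of co-inhibitory receptor genes, 3 rose and 1 fell from control to rescued Treg cells, where 2.3% of all genes were called. *Tbx21*, which encodes T-bet (2.27, SE 0.42, adjusted p = 0.0192), and *Prdm1*, which encodes Blimp-1 (1.46, SE 0.29, adjusted p = 0.0276), rose, and *Tox*, a regulator of exhausted T cells (-1.37, SE 0.22, adjusted p = 0.0102), fell. The median log2 fold change of the 13 was 0.50 against -0.03 over all genes tested. Between control Treg cells and “wannabes” 2 of the 13 were higher and 2 lower, against 16.2% of all genes called. *Tox* (1.82, SE 0.25, adjusted p = 0.00136) and *Ikzf2*, which encodes Helios (1.46, SE 0.29, adjusted p = 0.00713), were higher and *Batf*, an AP-1 family factor, lower (-0.79, SE 0.21, adjusted p = 0.0281). Between rescued Treg cells and “wannabes” 4 were higher and 1 lower, against 14.1% of all genes, with *Tbx21* (2.88, SE 0.51, adjusted p = 0.00354), *Tox2*, a relative of *Tox* (1.41, SE 0.34, adjusted p = 0.0174), and *Ikzf2* (1.03, SE 0.29, adjusted p = 0.0352) among the higher ones. In activated against resting “wannabes” 3 rose and 6 fell, where 22.5% of all genes were called. *Tbx21* rose there as well (3.10, SE 0.21, adjusted p = 0.000465), as did *Ikzf2* (1.59, SE 0.21, adjusted p = 0.00413), and *Maf*, a known activator of co-inhibitory receptor genes, fell (-1.11, SE 0.25, adjusted p = 0.0255). The difference between the 2 changes was positive for *Maf* (2.30, SE 0.43, adjusted p = 0.0163) and *Prdm1* (2.27, SE 0.47, adjusted p = 0.0299) and negative for *Ikzf2* (-2.0, SE 0.39, adjusted p = 0.0213).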

How the data were processed

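RNA-seq libraries of 8 male and 5 female samples were grouped by their labels. The male count columns carry short names, DTR, GFP and Thy1 with a number. They were assigned to control Treg cells, rescued Treg cells and “wannabes” from the genotypes in the labels and the sort markers in the study's methods, since no label spells out these names. The sample labels and the methods give 3 resting and 2 activated samples, and the series' design text gives these numbers the other way round. The sample labels were followed. The authors aligned reads with STAR 2.7.3a to GRCm38 and deposited whole-number counts per gene that had not been normalized; RNA had been amplified with a low-input kit without molecular identifiers. The gene annotation and strand setting are not given in the sources used here. Unnamed entries, 4 per file, held 0.00353 to 0.00841% of counts and were left out.

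Counts were analyzed in R 4.3.3 with edgeR 4.0.16: filterByExpr on the groups, TMM scaling and a quasi-likelihood F test, with p-values adjusted after Benjamini and Hochberg for all genes tested (14925 male, 13166 female, 15201 for the difference of changes), called at an adjusted p under 0.05. Intervals are at the 95% level. Common biological coefficients of variation were 0.51 (male) and 0.171 (female). CPM are TMM-scaled within each experiment. Ratios used counts plus 0.5 and exact two-sided permutation tests. Replicates are biological replicates per the study's methods; their log2 CPM (prior count 2) correlated across genes with r from 0.934 to 0.987, and every pair differed by more than sampling noise (lowest chi-square per degree of freedom 13.2). Of the 24417 genes, 23651 (96.9%) matched GENCODE M21 by symbol. The tests were also run on counts simulated with the spread estimated from these data. Such a run cannot check that spread, and its outcome is not reported here.

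The members and lists were chosen with earlier results of these data known. All 10 receptors are named in every comparison, and from each other list at most the 3 called genes with the largest absolute log2 fold change in a comparison; *Foxp3*, *Thy1* and cell type markers serve as checks of the labels, and *Cd4*, *Cd79a*, *Cd79b*, *Klrb1c*, *Cd68*, *Ncr1*, *Klra8*, *Klre1*, *Csf1r*, *Cd14* and *Itgax* are named from the marker lists. Of the list symbols, 5 were not matched in the tables. Alternatives were DESeq2 1.42.0, its size factors in edgeR, library size without TMM, no filter, a mean normalized count over 100, replicate numbers as blocks, fits restricted to the groups compared or extended to all 13 libraries, an unadjusted p, another pseudocount (1) or transcript length, and leaving out each library. Planned comparisons of the protein sequences were not made; protein sequences were not used here. A gene that this rule would have named is not reported here.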

Additional observations from a re-analysis of the deposited data

Results flagged for a closer look

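The change of 3 receptors differed between the experiments by the test of the difference itself. The change from control to rescued Treg cells minus the change from resting to activated “wannabes” was 3.33 on the log2 scale for *Lag3* (edgeR adjusted p = 0.00628), -1.13 for *Cd96* (edgeR adjusted p = 0.013) and -1.35 for *Btla* (edgeR adjusted p = 0.0163). *Lag3* was higher in 3 of 3 rescued than in any control Treg library and lower in 2 of 2 activated than in any resting library. *Btla* was lower in 3 of 3 rescued than in any control Treg library and higher in 2 of 2 activated than in any resting library. *Cd96* was lower in 3 of 3 rescued Treg libraries than in any control library and overlapped between the female groups. Without overlap, 12.6% of all genes were higher and 11.6% lower in rescued than in control Treg cells. In activated against resting “wannabes” these shares were 27.9% and 28.6%. The male changes of *Lag3* and *Btla* did not pass on their own (edgeR adjusted p = 0.227 and 0.0781). All 3 calls were lost without either activated library.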

How the results depend on the processing

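Of the 10 receptors, DESeq2 called 5 instead of 3 between rescued and control Treg cells, 8 instead of 5 between control Treg cells and male “wannabes” and 5 instead of 3 between rescued Treg cells and male “wannabes”. Over all genes it called 1195 of 14709, 3767 of 14333 and 3335 of 13958 there. EdgeR called 343, 2416 and 2105 of 14925. Among the receptors DESeq2 added *Pdcd1* and *Btla* in the first, *Icos*, *Lag3* and *Cd226* in the second and *Cd28* and *Cd96* in the third. It also added *Icos* and *Tigit* between activated and resting “wannabes”, and *Cd28* for the difference between the experiments. Unadjusted p-values under 0.05 numbered 8, 9 and 6 in these comparisons and 6, instead of 3 calls, for the difference between the experiments. The share of all genes at that threshold was not counted, so whether these numbers are high was not tested. A fit of only the 2 groups compared called 3 between control Treg cells and “wannabes”, and a fit of all 13 libraries called 2 instead of 5 between activated and resting “wannabes”. Leaving out 1 library gave 3 to 5 calls for rescued against control Treg cells, 2 to 6 for control Treg cells against “wannabes” (2 without control replicate 3 or “wannabe” replicate 2), 2 to 3 for rescued Treg cells against “wannabes”, 2 to 7 for activated against resting “wannabes” (2 without either activated library) and 0 to 4 for the difference between the experiments (0 without either activated library). The cause was not tested.

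None of the estimates that changed sign was called. For rescued Treg cells against “wannabes”, *Tigit* was -0.052 with the replicate block, -0.06 without rescued replicate 3 and -0.18 without “wannabe” replicate 1 (range -0.18 to 0.24). Without “wannabe” replicate 2, *Lag3* was 0.32 (range -0.71 to 0.32), *Cd226* -0.17 (to 0.71), *Btla* -0.11 (to 0.45) and the log2 ratio of *Tigit* to *Cd226* 0.41 (from -0.89). For the difference between the experiments, *Cd226* was -0.01 without control replicate 2, -0.054 without resting replicate 2 and -0.01 without activated replicate 1 (range -0.054 to 0.19). No called change reversed in any alternative run.

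The replicate numbers did not pair the samples: deviations of same-numbered samples of different groups correlated with r from -0.03 to 0.08 over 9 pairs, and 3 of the 6 control and rescued Treg samples correlated best with the sample of the same number. With the replicate number as a block, 3, 7, 4, 7 and 3 receptors were called in the 5 comparisons in the order of the report, against 3, 5, 3, 5 and 3, and all genes called were 426, 2304, 1968, 2045 and 238 instead of 343, 2416, 2105, 2958 and 233. The block lost *Ctla4* between control Treg cells and “wannabes” (edgeR adjusted p = 0.0525) and *Havcr2* between activated and resting “wannabes” (0.117). It added *Icos*, *Cd226* and *Cd96* between control Treg cells and “wannabes”, *Havcr2* between rescued Treg cells and “wannabes”, and *Ctla4*, *Icos* and *Tigit* between activated and resting “wannabes”. DESeq2 called 1195, 3767, 3335, 3777 and 805 of 14709, 14333, 13958, 14291 and 13988 genes with an adjusted p.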
